A study of Mus musculus with 6 samples.

Results

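The factors described here are 9 transcription factors that direct the myeloid branch of blood formation, namely Cebpa, Cebpb, Cebpe, Gfi1, Spi1, Irf8, Myb, Runx1 and Klf4. They were taken by gene symbol from a table of 54532 genes, and each symbol matched a single gene. RNA had been sequenced from bone of female C57BL/6J mice aged 16 weeks, in 3 libraries from MIR29cb2-/- mice (KO) and 3 from wild-type mice (WT). The deleted cluster encodes miR-29b-2 together with miR-29c. The kind of bone, any removal of marrow, the way the deletion was made and whether each library came from its own mouse are not stated in the labels. A p-value therefore covers the spread among these 6 libraries, which may be technical. Levels are given in FPKM, a read density per kilobase of exon that takes library size into account.

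Granulocytes and monocytes arise from shared precursors in marrow under a small set of transcription factors. PU.1, encoded by Spi1, and C/EBP alpha, encoded by Cebpa, open the myeloid program, Irf8 favours monocytes and dendritic cells, and Gfi1 and Cebpe favour neutrophils. Cebpb drives granulocyte production under stress and is also active in macrophages, fat and bone-forming cells. Myb and Runx1 act in stem and progenitor cells, and Klf4 acts in monocytes as well as in surface epithelia and vessel walls.

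MicroRNAs bind messages mainly through their seed, bases 2 to 8. The mature 3p strands of the deleted genes, from RefSeq on GRCm38.p6, are shown because the seed defines what to look for in the factors, with the seed in capitals.
mmu-miR-29b-3p (chr1:195037091-195037113, plus strand): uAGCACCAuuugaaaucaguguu
mmu-miR-29c-3p (chr1:195037600-195037621, plus strand): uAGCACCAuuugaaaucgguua
Both have the same seed, and miR-29a and the second miR-29b gene at another locus share it. In annotated 3′ UTRs (GENCODE M21) the complementary 7 bases TGGTGCT were present in 14.1% of 21168 genes, and among the 9 factors only Klf4 had them, with 1 match. That match lies at bases 557 to 563 of a 3′ UTR of 982 bases, and the 30 bases around it (mm10 chr4:55527550-55527579, minus strand) are shown with the matching bases in capitals.
Klf4 3′ UTR: agcctaaatgaTGGTGCTtggtgagtcgtg
The longest 3′ UTR without a match was that of Runx1, at 4189 bases, and the shortest was that of Cebpe, at 179 bases.

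The microRNA genes Mir29b-2 and Mir29c were listed at 0 in all 6 libraries, so they do not check the labels, since mature microRNAs are too short for this kind of library. Their host transcript A330023F24Rik stood at 2.51, 3.25 and 4.08 FPKM in KO libraries 1 to 3, against 0.197, 0.153 and 0.136 FPKM in WT libraries 1 to 3. The recovered depth was 16722676 to 20113399 reads per library. KO library 1 and WT library 2 stood apart, with FPKM totals of 487102 and 489576 against 355787 to 404994 in the other 4. Both also read short genes relatively high, with a Spearman's rho across genes, between exon length and a gene's deviation from its genotype's mean, of -0.45 in KO library 1 and -0.42 in WT library 2, against 0.18 to 0.41 in the others. Osteoblast markers, which check the labelled tissue, were present in every library, at a summed 443 to 933 FPKM in KO and 1065 to 1878 FPKM in WT bone.

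All 9 factors were expressed in every library and passed the filter of a mean of 1 FPKM. Of the 9, 2 rose in KO bone, Gfi1 and Cebpb, and 0 fell, in limma with an adjusted p threshold of 0.05. Over all 13619 genes tested, 5.16% passed, 1.34% as higher and 3.82% as lower in KO. Every KO value lay above every WT value for 6 factors (Cebpb, Cebpe, Gfi1, Spi1, Irf8 and Myb), and below every WT value for Klf4. Of all genes tested, 28.4% had such separate groups, 14.7% higher and 13.7% lower in KO. An unadjusted p under 0.05 was reached by 5 of the 9 and by 20.6% of all genes tested. In limma's voom on recovered reads Gfi1 and Cebpb were again the ones past the threshold. Without KO library 1 and WT library 2 together, Gfi1 and Cebpb were also the 2 that passed. Over all 17 alternatives, however, Gfi1 passed in 13 and Cebpb in only 5. The median log2 change of the 9 was 0.26, beside 0.060 for all genes tested. In bulk bone, a change in the number of cells of a type and a change in RNA per cell cannot be told apart.

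**Figure D1:**
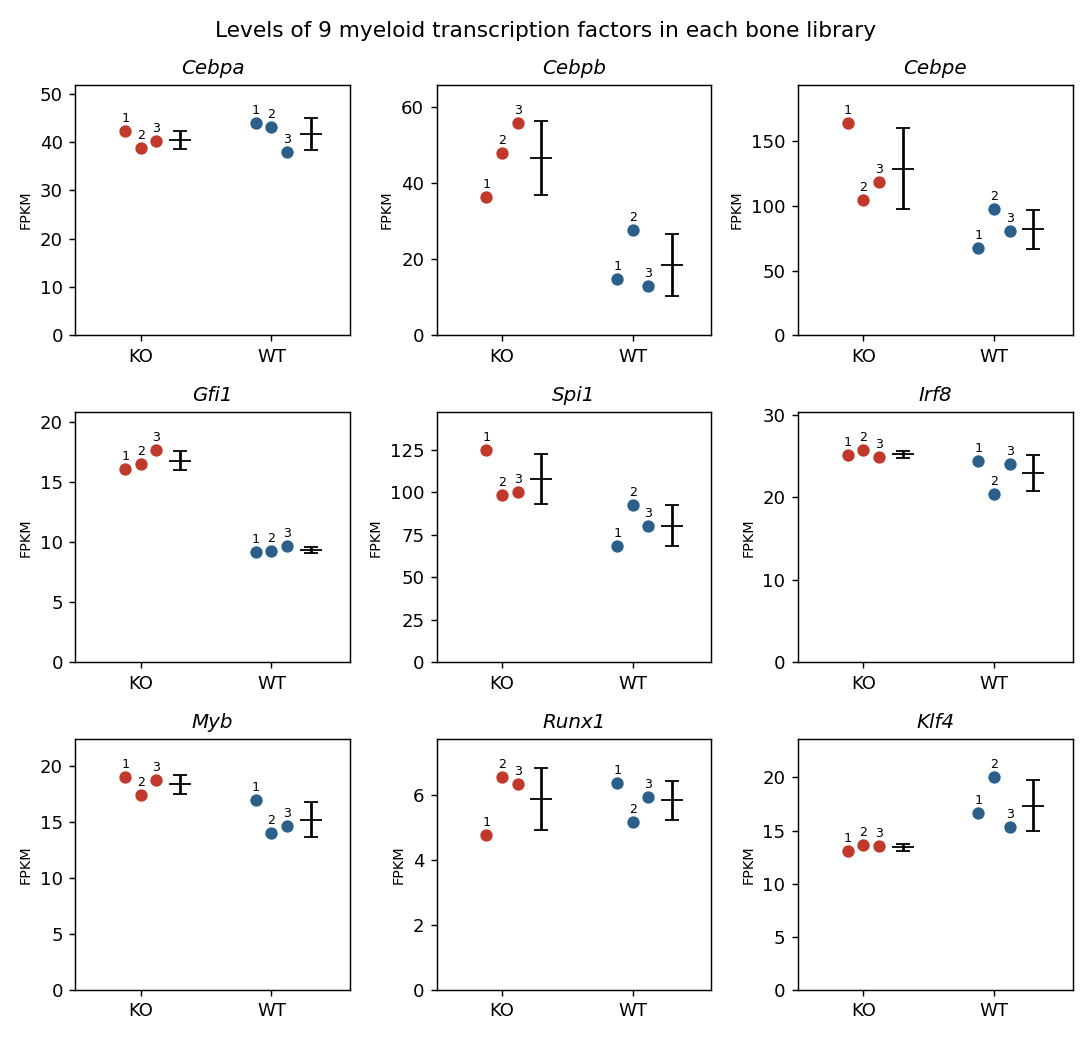
FPKM of each factor (vertical axis, from 0) in the 3 KO libraries (red, left) and 3 WT libraries (blue, right), numbered by replicate, with mean and SD in black. Gfi1 values sit in narrow groups that are far apart, at 16.1 to 17.6 in KO and 9.22 to 9.67 in WT, while those of Cebpa and Runx1 overlap.

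Gfi1 (ENSMUSG00000029275, mm10 chr5:107716657-107726036, minus strand) encodes a zinc-finger repressor that is needed for neutrophil formation and holds back monocyte genes. Its level was 16.1, 16.5 and 17.6 FPKM in KO libraries 1 to 3, against 9.22, 9.25 and 9.67 FPKM in WT libraries 1 to 3. All KO values were above all WT values, and the values within each genotype lay close together. The means were 16.8 ± 0.791 FPKM in KO and 9.38 ± 0.252 FPKM in WT (SD, n = 3 each), a ratio of 1.79. On the log2(FPKM + 1) scale the change was 0.77 (SE 0.10, 95% interval 0.54 to 1.01, limma adjusted p = 0.0148). The values rest on 556 to 973 recovered reads per library. The call held in 13 of 17 alternatives and was lost, among others, without KO library 2 (adjusted p = 0.0721 in limma), without WT library 1 (0.0676) and with FPKM rescaled to a common library total (0.0684), while the change stayed between 0.74 and 0.83 over all 17 alternatives. A noncoding gene on the opposite strand, A430072P03Rik, overlaps the Gfi1 span at a mean of 1.42 FPKM in KO and 0.980 FPKM in WT, and the use of strand in counting is not given in the sources used here.

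Promoter windows of 300 bases (250 before and 50 after the annotated start, RefSeq on GRCm38.p6) were found for 7 of the 9 factors, in 10 windows. They were searched on both strands for GAGGAA (the PU.1 core), TTGCNNAA (C/EBP), TGTGGT (the RUNX core) and AACNG (the MYB core). The upstream start of Gfi1, the factor with the smallest p, is shown because it held the only C/EBP match of the 10 windows, in capitals (chr5:107725756-107726055, minus strand, 5′ to 3′).
Gfi1 promoter: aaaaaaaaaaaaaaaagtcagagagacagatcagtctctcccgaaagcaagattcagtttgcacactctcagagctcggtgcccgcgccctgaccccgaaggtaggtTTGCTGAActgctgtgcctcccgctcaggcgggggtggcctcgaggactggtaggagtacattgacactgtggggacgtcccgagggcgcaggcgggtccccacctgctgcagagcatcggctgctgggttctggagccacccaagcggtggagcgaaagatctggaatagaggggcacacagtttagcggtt
The match begins at -143 from the start and overlaps a MYB core match at -137. Other MYB core matches in the window are left in lower case. C/EBP matches occurred in 10.8% of all 32851 promoter windows. The PU.1 core, in 28.3% of all windows, was found in 1 window of Runx1, and the RUNX core, in 16.8%, was found in the other window of Runx1, at 29 and 37 bases after its start. The MYB core was present in all 7 genes, beside 82.4% of all genes with a promoter window, and in 80.3% of all windows.

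Cebpb (ENSMUSG00000056501, chr2:167688915-167690418, plus strand) had the largest change of the 9. Its level was 36.5, 48.1 and 55.9 FPKM in KO libraries 1 to 3, against 14.8, 27.8 and 12.9 FPKM in WT libraries 1 to 3. All KO values were above all WT values, with WT library 2 nearest to the KO range. The means were 46.8 ± 9.75 FPKM in KO and 18.5 ± 8.11 FPKM in WT (SD, n = 3 each), a ratio of 2.53. The log2 change was 1.35 (SE 0.30, 95% interval 0.65 to 2.05) with a limma adjusted p of 0.0495, just inside the threshold. It passed when WT library 2 was left out (limma adjusted p = 0.0252), but not without KO library 1 (0.0836), KO library 2 (0.158), KO library 3 (0.127), WT library 1 (0.155) or WT library 3 (0.119). Without KO library 1 and WT library 2 together the log2 change was 1.83 (limma adjusted p = 0.0289). The Cebpb span also overlaps that of Tmem189, on the opposite strand, which stood at a mean of 14.8 FPKM in KO and 13.8 FPKM in WT.

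Cebpe (ENSMUSG00000052435, chr14:54710360-54712174, minus strand) encodes C/EBP epsilon, which acts in late granulocyte maturation and on secondary granule genes. It stood at 164, 104 and 118 FPKM in KO libraries 1 to 3, against 67.7, 97.7 and 80.5 FPKM in WT libraries 1 to 3. The groups did not overlap, and KO library 1 was far above the other KO libraries. The means were 129 ± 31.2 FPKM in KO and 82.0 ± 15.04 FPKM in WT (SD, n = 3 each). The log2 change of 0.64 (95% interval 0.12 to 1.15) did not pass (limma adjusted p = 0.158), and the exact permutation p of 0.1, two-sided, was the smallest that 3 against 3 libraries can give. It passed in 3 of 17 alternatives, among them one that took the exon length trend out of each library (limma adjusted p = 0.0299), and without KO library 1 and WT library 2 the log2 change was 0.58 (limma adjusted p = 0.110).

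Cebpa (ENSMUSG00000034957, chr7:35119293-35121928, plus strand), whose product starts granulocyte commitment and also acts in fat and liver, did not differ beyond its spread. It stood at 42.2, 38.7 and 40.2 FPKM in KO libraries 1 to 3, against 43.9, 43.1 and 37.9 FPKM in WT libraries 1 to 3. The ranges overlapped, with the highest and the lowest value both in WT. The log2 change was -0.040 with a 95% interval of -0.32 to 0.24 (limma adjusted p = 0.891). The 3 C/EBP genes therefore had different values of the change in the same libraries, from -0.040 for Cebpa to 1.35 for Cebpb. Markers of fat cells, another tissue in which Cebpa and Cebpb are active, had a summed 46.6 to 90.1 FPKM in KO and 408 to 628 FPKM in WT bone. Of these 5 adipocyte markers 4 fell, while 3.82% of all genes tested passed as lower, and none of the 5 was at 0. The part of these markers' cells in the Cebpa and Cebpb levels was not tested.

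**Figure D2:**
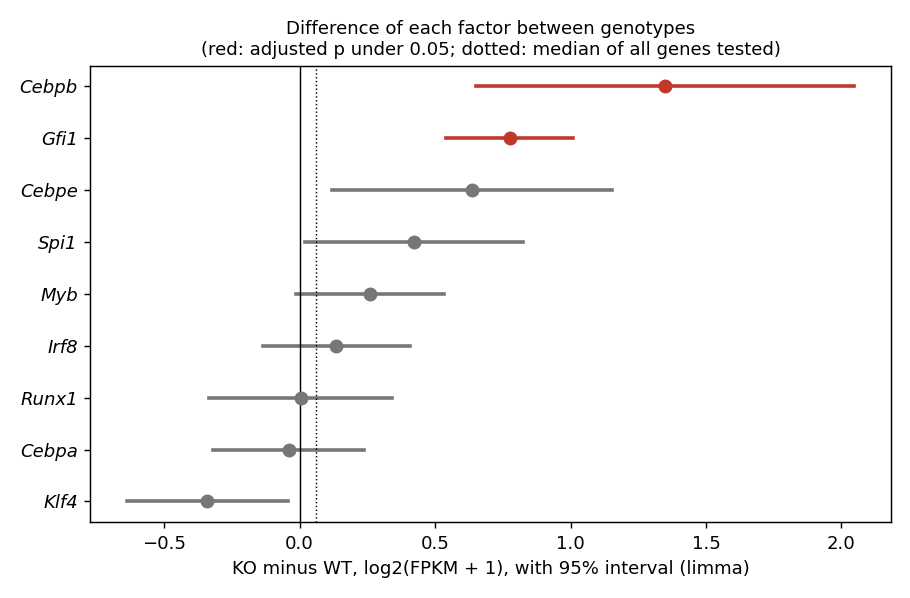
Difference of each factor, KO minus WT, on the log2(FPKM + 1) scale (horizontal axis), with its 95% limma interval, in order from highest to lowest. Gfi1 and Cebpb (red) passed the adjusted threshold, and the dotted line marks the median of all genes tested, 0.060.

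Spi1 (ENSMUSG00000002111, chr2:91082390-91115756, plus strand) stood at 125, 98.5 and 100.03 FPKM in KO libraries 1 to 3, against 68.3, 92.2 and 80.1 FPKM in WT libraries 1 to 3. The groups did not overlap, though KO library 2 and WT library 2 were close. The means were 108 ± 14.6 FPKM in KO and 80.2 ± 11.99 FPKM in WT (SD, n = 3 each). The log2 change was 0.42 (95% interval 0.021 to 0.83) and did not pass (limma adjusted p = 0.220). Irf8 (ENSMUSG00000041515, chr8:120736358-120756694, plus strand) stood at 25.2, 25.7 and 24.9 FPKM in KO libraries 1 to 3, against 24.4, 20.5 and 23.99 FPKM in WT libraries 1 to 3. The lowest KO value was only 0.485 FPKM above the highest WT value, and WT library 2 was the low one. The log2 change of Irf8 was 0.14 (95% interval -0.14 to 0.41, limma adjusted p = 0.575).

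Of the progenitor factors, Myb (ENSMUSG00000019982, chr10:21124935-21160984, minus strand) stood at 19.0, 17.4 and 18.7 FPKM in KO libraries 1 to 3, against 17.0, 14.0 and 14.6 FPKM in WT libraries 1 to 3. The groups were apart by 0.435 FPKM. The log2 change was 0.26 (95% interval -0.014 to 0.53) and did not pass (limma adjusted p = 0.266). Runx1 (ENSMUSG00000022952, chr16:92601466-92826149, minus strand) was the lowest of the 9 and stood at 4.78, 6.54 and 6.33 FPKM in KO libraries 1 to 3, against 6.38, 5.18 and 5.94 FPKM in WT libraries 1 to 3. Its groups overlapped fully, and KO library 1 and WT library 2 held the lowest value of each genotype. The log2 change was 0.0041 (95% interval -0.33 to 0.34, limma adjusted p = 0.992), and its sign turned in several alternatives.

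Klf4 (ENSMUSG00000003032, chr4:55527143-55532466, minus strand), the factor with the miR-29 seed match shown above, was the only one whose values were all lower in KO. It stood at 13.1, 13.7 and 13.5 FPKM in KO libraries 1 to 3, against 16.7, 19.9999 and 15.3 FPKM in WT libraries 1 to 3. The KO values were close together, and WT library 2 was the highest of all 6. The means were 13.4 ± 0.309 FPKM in KO and 17.3 ± 2.41 FPKM in WT (SD, n = 3 each). The log2 change was -0.34 (95% interval -0.64 to -0.043), which did not pass (unadjusted p = 0.0301, limma adjusted p = 0.183). Without KO library 1 and WT library 2 together it was -0.22. Markers of epidermis, where Klf4 is abundant, summed to 0.289 to 0.732 FPKM in KO and 0.341 to 1.20 FPKM in WT, with Krt5 and Krt14 at 0 in all 6 libraries.

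By level, Cebpe and Spi1 led in both genotypes and their ranges overlapped there. In KO bone Cebpb and Cebpa followed with overlapping ranges, then Irf8, then Myb and Gfi1 with overlapping ranges, then Klf4 and Runx1. In WT bone Cebpa came next, apart from its neighbours, then Irf8, Cebpb, Klf4 and Myb, each overlapping the next, then Gfi1 and Runx1. Cebpb was thus ranked 3 of 9 in KO and 5 of 9 in WT.

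Because the factors act in balance, ratios of FPKM values within a library were set side by side, as a description with no test. The ratio of Gfi1 to Irf8 was 0.640, 0.643 and 0.709 in KO libraries 1 to 3, against 0.378, 0.452 and 0.403 in WT libraries 1 to 3. All KO ratios were above all WT ratios. The ratio of Cebpe to Cebpa was 3.88, 2.69 and 2.94 in KO, against 1.54, 2.27 and 2.13 in WT, without overlap. Cebpb to Cebpa stood at 0.864, 1.24 and 1.39 in KO, against 0.338, 0.645 and 0.339 in WT, so that Cebpb exceeded Cebpa in KO libraries 2 and 3 and in no WT library. Spi1 to Cebpa was 2.95, 2.54 and 2.49 in KO and 1.56, 2.14 and 2.11 in WT, also without overlap. The ratio of Cebpa to Irf8 overlapped, at 1.68, 1.51 and 1.62 in KO and 1.80, 2.11 and 1.58 in WT. Each ratio without overlap has a numerator whose own values were all higher in KO. For Gfi1 to Irf8, Cebpe to Cebpa, Cebpb to Cebpa and Spi1 to Cebpa the log2 differences were 0.70, 0.68, 1.44 and 0.47. The changes of Gfi1, Cebpe, Cebpb and Spi1 alone were near these, at 0.77, 0.64, 1.35 and 0.42. These ratios therefore add little beyond the single genes.

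**Figure D3:**
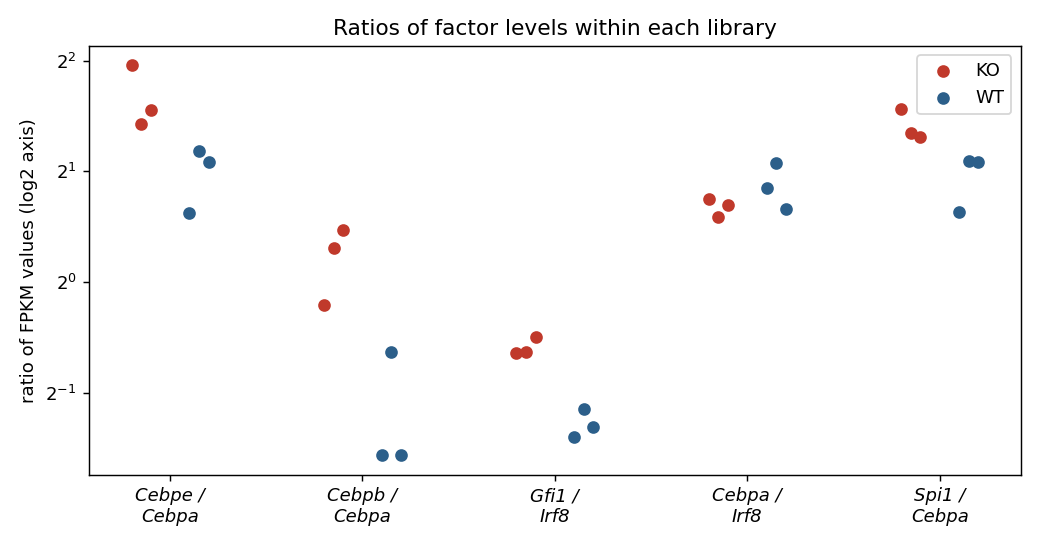
Ratios of FPKM values of pairs of factors in each library (log2 axis), KO in red on the left and WT in blue on the right of each pair. The KO libraries lie above the WT libraries for every ratio except Cebpa to Irf8. In each of those ratios the numerator was itself higher in KO without overlap.

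Relatives of the factors did not pass. Of 17 genes from the same families 16 were tested and 0 passed in limma (3 had an unadjusted p under 0.05, a share near the 20.6% of all genes, and voom on recovered reads called 0), with a median log2 change of -0.18. The smallest p belonged to Irf4, a lymphoid and plasma cell factor, at 4.91 ± 0.456 FPKM in KO and 7.68 ± 1.90 FPKM in WT (SD, n = 3 each, limma adjusted p = 0.131). Other C/EBP genes, named after their values were seen, were Cebpd at 34.5 ± 6.73 FPKM in KO and 26.7 ± 9.24 FPKM in WT, and Cebpg at 17.5 ± 0.874 FPKM in KO and 16.8 ± 1.36 FPKM in WT (SD, n = 3 each). Neither passed, with limma adjusted p-values of 0.453 and 0.844. Gfi1b, the erythroid counterpart of Gfi1 and likewise named after its values were seen, stood at 31.8, 29.2 and 29.0 FPKM in KO and 32.1, 33.0 and 44.5 FPKM in WT, a log2 change of -0.26 that did not pass (limma adjusted p = 0.405).

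Of 15 cofactors and partners 14 were tested and 1 fell, Egr1, an immediate-early factor tied to macrophage fate (1.30, 1.92 and 1.74 FPKM in KO, against 5.41, 5.31 and 3.27 FPKM in WT, log2 change -1.08, limma adjusted p = 0.0316). Over all genes tested 3.82% passed as lower, and the list had a median log2 change of -0.23. Of its tested members 6, Egr1 among them, were lower without overlap, as were 13.7% of all genes tested. Of 18 factors of other lineages 16 were tested and Sp7, the osteoblast factor, fell (log2 change -1.33, limma adjusted p = 0.0472), with a list median of -0.11. Without KO library 1 and WT library 2 together, 0 cofactors and 0 factors of other lineages passed in limma. In that setting 6 of 14 and 6 of 16 had an unadjusted p under 0.05, against 22.9% of all genes. With the exon length trend removed 3 of each list were called lower, and voom on recovered reads called 2 cofactors and 1 factor of other lineages lower. Gata1, the erythroid factor, named after its values were seen, had overlapping groups at 55.5 ± 10.03 FPKM in KO and 55.1 ± 11.5 FPKM in WT (SD, n = 3 each).

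Genes that these factors are known to regulate moved in both directions. Of 9 receptors for myeloid growth factors 1 rose and 1 fell, while 1.34% of all genes tested passed as higher and 3.82% as lower. Without overlap 3 receptors were higher and 1 was lower, beside 14.7% and 13.7% of all genes tested. An unadjusted limma p under 0.05 was reached by 4 of the 9, beside 20.6%. Csf2rb, the common beta chain of the GM-CSF, IL-3 and IL-5 receptors, stood at 25.7, 32.9 and 34.4 FPKM in KO libraries 1 to 3, against 16.7, 10.3 and 15.8 FPKM in WT libraries 1 to 3 (log2 change 1.09, limma adjusted p = 0.0354). Csf1r, the M-CSF receptor of monocytes and osteoclast precursors and a PU.1 target, stood at 22.3, 23.6 and 21.0 FPKM in KO, against 39.4, 35.2 and 34.5 FPKM in WT (log2 change -0.68, limma adjusted p = 0.0276). The groups were far apart for both receptors, in opposite directions. With FPKM rescaled to a common library total 0 of the 9 passed, and without KO library 1 and WT library 2 together 1 rose and 0 fell.

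The list of primary granule genes, which C/EBP and Myb factors activate in neutrophil precursors, also holds the precursor gene Ms4a3. Of its 5 genes 4 rose, while 1.34% of all genes tested passed as higher in KO. The list median log2 change was 1.45. Ctsg stood at 637, 486 and 482 FPKM in KO, against 159, 177 and 178 FPKM in WT (log2 change 1.63, limma adjusted p = 0.0104). Ms4a3, a membrane protein of granulocyte and monocyte precursors, stood at 179, 147 and 147 FPKM in KO, against 45.1, 72.0 and 56.9 FPKM in WT (log2 change 1.45, limma adjusted p = 0.0167). Mpo and Prtn3 also rose, with log2 changes of 1.05 and 1.51 (limma adjusted p = 0.0290 and 0.0336). Together the list's levels summed to 2529 to 3707 FPKM in KO and 984 to 1388 FPKM in WT. Without KO library 1 and WT library 2 together 3 of the 5 passed, and voom on recovered reads called all 5. All 5 genes were higher in KO without overlap, as were 14.7% of all genes tested, and none of the 5 was at 0. Of the factors, Gfi1, Cebpb, Cebpe, Spi1, Irf8 and Myb were also higher without overlap. The part of precursor numbers in the levels of those factors was not tested.

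Of 7 secondary and tertiary granule genes, known targets of Cebpe, 0 passed in limma (2 had an unadjusted p under 0.05, beside 20.6% of all genes, and voom on recovered reads called 1), with a median log2 change of 0.39. Lcn2, lipocalin 2, had the smallest p, at 1089, 845 and 852 FPKM in KO and 364, 614 and 537 FPKM in WT (log2 change 0.90, limma adjusted p = 0.101). Lcn2 and 2 others, Ltf and Mmp8, were higher without overlap (beside 14.7% of all genes tested), and Mmp9 was lower without overlap (beside 13.7%). Camp, like these 3 named after its values were seen, had nearly equal means, at 3084 ± 520 FPKM in KO and 3049 ± 1117 FPKM in WT (SD, n = 3 each).

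**Figure D4:**
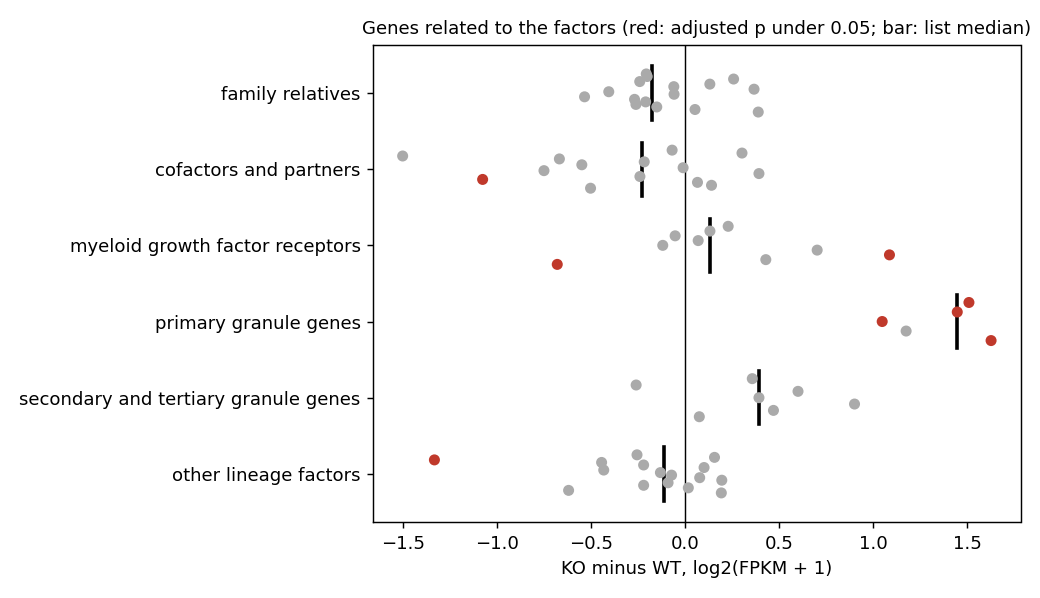
KO minus WT differences on the log2(FPKM + 1) scale (horizontal axis) for each tested gene of 6 lists, in red where the adjusted p was under 0.05, with the list median as a bar. The genes of the primary granule list, Ms4a3 among them, are all at 1.05 or above, while family relatives lie between -0.53 and 0.39.

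Markers of other marrow cells in which the factors are active varied as well. Over all genes tested, 1.34% passed as higher and 3.82% as lower in KO. The 6 monocyte markers summed to 313 to 374 FPKM in KO and 191 to 236 FPKM in WT, and of them Vcan and F13a1 rose (log2 changes 1.87 and 1.04, limma adjusted p = 0.00349 and 0.0148) while Cx3cr1 fell (-1.12, limma adjusted p = 0.0359). Mature neutrophil markers summed to 30059 to 39610 FPKM in KO and 16301 to 31443 FPKM in WT, which overlap, with Prok2 as the single member that rose (log2 change 2.26, limma adjusted p = 0.00712). Of 6 osteoclast markers, cells of the same lineage as monocytes, Atp6v0d2 passed as lower (log2 change -1.50, limma adjusted p = 0.0202). All 6 were lower without overlap, beside 13.7% of all genes, and all 6 had an unadjusted limma p under 0.05, beside 20.6%. Their median log2 change was -1.42, and the sum was 168 to 383 FPKM in KO and 628 to 1283 FPKM in WT. Blood progenitor markers, the setting of Myb and Runx1, summed to 18.7 to 19.7 FPKM in KO and 19.2 to 21.4 FPKM in WT. Of 4 tested members 0 passed the limma threshold (at an unadjusted p under 0.05 also 0, and voom called 0). However, 2 of the 4 were lower without overlap, beside 13.7% of all genes tested. In voom, with the exon length trend removed, and without KO library 1 and WT library 2, 1 had an unadjusted p under 0.05. Dendritic cell markers, an Irf8 lineage, summed to 16.0 to 17.8 FPKM in KO and 14.2 to 18.4 FPKM in WT, and Itgax fell (log2 change -0.51, limma adjusted p = 0.0468). Without KO library 1 and WT library 2 together 2 monocyte markers and 1 mature neutrophil marker were called higher, and no marker of these 5 lists was called lower. None of their markers was at 0 throughout, and their part in the levels of the factors was not tested.

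The remaining marker lists describe what else the bone samples held. Of 6 B cell precursor markers Vpreb1 and Igll1 fell (log2 changes -2.32 and -2.06, limma adjusted p = 0.0220 and 0.0254), and the list summed to 112 to 195 FPKM in KO and 163 to 218 FPKM in WT. Of 6 erythroid and 6 resident macrophage markers 0 passed in limma (0 and 1 had an unadjusted p under 0.05, and voom called 0 in both). Their smallest p belonged to Hbb-bs (limma adjusted p = 0.781) and to Cd163, a macrophage scavenger receptor at 14.4 ± 1.93 FPKM in KO and 7.36 ± 2.02 FPKM in WT (SD, n = 3 each, limma adjusted p = 0.0552). All 4 chondrocyte markers tested fell, with a median log2 change of -3.19, and so did 2 of 5 skeletal muscle markers, Myl1 and Ckm. Over all genes tested, 3.82% passed as lower in KO. With KO library 1 and WT library 2 both left out, 3 of 4 chondrocyte markers, 0 muscle markers and 0 B cell precursor markers were called lower in limma, and 1 muscle marker was with the common library total. At an unadjusted p under 0.05 in the setting without those libraries there were 3 of 5 muscle and 4 of 6 B cell precursor markers. The share over all genes in that setting was 22.9%. The chondrocyte list summed to 6.93 to 21.5 FPKM in KO and 155 to 230 FPKM in WT, and the muscle list to 1486 to 2258 FPKM in KO and 2959 to 5295 FPKM in WT. Their part in the levels of the 9 factors was not tested.

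Among the 67 tested genes of the 6 lists of related genes, with the cell type markers not compared, the gene most alike each factor was found by Pearson's r of log2(FPKM + 1) over the 6 libraries. The libraries fall into both genotypes, so a shared genotype difference or library property raises r. For Gfi1 it was Mpo (r = 0.97), for Cebpb Ms4a3 (0.90), for Cebpe Klf5 (0.98) and for Spi1 Lcn2 (0.98). For Irf8 it was Bcl11a (0.99), for Klf4 Mmp9 (0.99), for Runx1 Zeb2 (0.94), for Myb Csf2rb2 (0.91) and for Cebpa Nab2 (0.74).

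**Figure D5:**
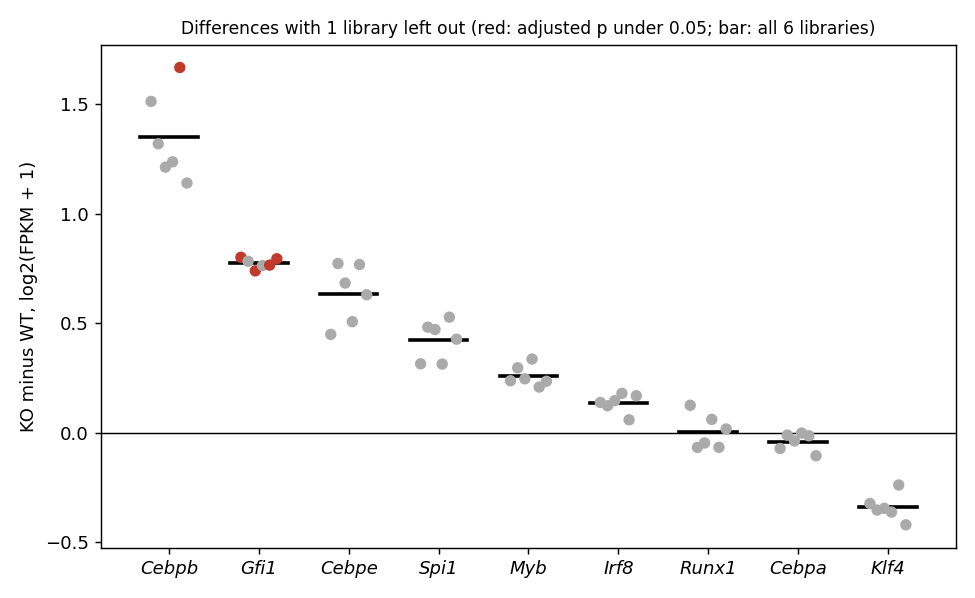
KO minus WT difference of each factor on the log2(FPKM + 1) scale (vertical axis) with each library left out in turn, in red where the adjusted p was under 0.05, with all 6 libraries as a bar. Gfi1 stays within 0.74 to 0.80 and passes in 4 of 6 cases, Cebpb spans 1.14 to 1.67 and passes in 1, and Runx1 lies on both sides of 0.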

How the data were processed

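The authors deposited a table of FPKM, a read density normalized for exon length and library size, covering 54532 genes in 6 libraries. The submitters' processing notes name Bowtie 0.12.2 and the mm10 build. How reads were counted, on which annotation and with what strand setting is not given in the sources used here. Frozen bone was lysed in Trizol and an Illumina TruSeq RNA kit was used, per the labels' protocols. Gene symbols, exon lengths and 3′ UTRs came from GENCODE M21, which matched 54409 identifiers.

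FPKM times exon length came out as whole reads in all libraries (tolerance 0.01 reads) for 96.8% of genes above 0 in any library, which gave read numbers. These cover counting error only. Genes averaging 1 FPKM or more were tested as log2(FPKM + 1) with limma 3.58.1 in R 4.3.3 (moderated variances with a trend), adjusted by Benjamini-Hochberg over 13619 genes. Changes on this scale understate those of low genes. Single factors were also compared by a two-sided exact permutation test. On simulated counts for 12939 genes of this comparison, limma recovered 24% of changes of 1.5-fold, 76% of 2-fold and 100% of 4-fold, with 12 false calls of 162. The simulation gave every gene the same spread beyond counting noise (dispersion 0.0225). Its changed genes were well covered by reads, and it held no exon length trend, so these rates may not hold for the real libraries. Libraries of a genotype differed by more than counting noise (chi-square per degree of freedom 12.9 to 73.2), so none was treated as 1 library deposited again, which does not tell technical from biological replicates.

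The factors and the gene lists were chosen with earlier results of these data known. Named genes are the 9 factors, up to 4 called members per list or the one with the smallest p, and the most alike gene. Genes outside this rule are marked where named. Alternatives covered pseudocount, filter, scaling, variance model, weights, replicate block, recovered reads, exon length trend and libraries left out.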

Additional observations from a re-analysis of the deposited data

How the results depend on the processing

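Over 17 alternatives the log2 change of Cebpb, Cebpe, Gfi1, Spi1, Irf8, Myb and Klf4 kept its sign, and Gfi1 passed the limma threshold in 13 and Cebpb in 5. Cebpb did not pass with a pseudocount of 0.1 (log2 change 1.40), with no filter, a filter of 5 FPKM or no variance trend (1.35 each), with median-of-ratios scaling (1.36) or with FPKM rescaled to a common library total (1.35). Gfi1 did not pass with the common total (0.78). Cebpe passed with the common total (0.61), array weights (0.45) and the length trend removed (0.64), and Spi1 passed with array weights (0.34). Cebpa turned to 0.0019 with array weights. Runx1 turned to -0.028 with the common total, -0.037 with voom and -0.048 with the length trend removed. With 1 library left out, the ranges were 1.14 to 1.67 for Cebpb, 0.74 to 0.80 for Gfi1 and -0.067 to 0.13 for Runx1. The cause of these changes was not tested. Of all genes 703 passed, against 143 with no filter, 365 with a filter of 5 FPKM, 3354 with array weights, 1215 with the length trend removed, 238 without KO library 1 and WT library 2 together, and 62 to 409 with any 1 library left out. Numbers shared by KO and WT libraries gave no sign of pairing. Same-numbered deviations correlated at -0.49, -0.27 and 0.16 across genes, and not every library correlated best with its own number. KO library 1 and WT library 2, which both read short genes high, correlated at 0.55, so a pairing beneath that trend could be missed. With the replicate block 127 genes passed, and Gfi1 (log2 change 0.77, limma adjusted p = 0.0837) and Cebpb (1.35, adjusted p = 0.0999) did not. With 3 libraries per genotype the exact permutation test cannot go below 0.1.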
